A study of Mus musculus with 8 samples.

Results

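TEC transcripts were analysed in the brain cortex of mice fed a normal diet or a high fat diet. They comprised every row that the FPKM table labels with the class TEC, which were 480 of 13996 rows. Male C57BL/6 mice aged 8 weeks received either diet for 8 weeks, the high fat diet containing 60% fat by weight, and cortexes were taken at 16 weeks of age from 4 mice per diet. RNA depleted of rRNA was sequenced from stranded libraries, with 1 library per mouse, so all values below come from bulk tissue labelled as cortex and not from a purified cell type. FPKM, the number of sequenced fragments relative to transcript length and library size, corrects for length and depth, and the number of reads behind each value is therefore unknown. In bulk tissue, fewer cells that make an RNA and less of that RNA per cell cannot be told apart.

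TEC is the GENCODE label for places in the genome where clusters of sequenced cDNA ends point to a transcript, often with features of a polyadenylated end, but where no gene model has been settled and experimental proof is still awaited. Such a locus may belong to an undescribed gene, to an extended end of a known gene, or to an intron. Intronic RNA is made whenever the surrounding gene is transcribed and is normally removed by splicing, and libraries depleted of rRNA retain such unspliced RNA besides mature mRNA. Reads from the unspliced RNA of a host gene and reads from a separate TEC transcript on the same strand cannot be told apart in these values.

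The last 50 bases of 8 TEC transcripts are printed first, because the end of a transcript shows how a TEC locus differs from a finished mRNA. Capitals mark AATAAA, the main signal for cleavage and polyadenylation, and no other motif was marked. Sequences are in the direction of transcription, from the GENCODE M21 transcripts on GRCm38, and the coordinates are those of the printed bases. The first 3 contain the signal and lie near Nipa1, near Homer1 and in a Homer1 intron, in that order. The next 5 do not contain it and are the TEC transcript with the largest increase (in Nkain2), the one with the next largest (in Egfem1), the first TEC transcript of Kcnip4, one of the 5 with the largest difference of the ratio to the host (in Gpm6a), and a TEC transcript inside Snhg14.
RP23-181P23.1 (chr7:55973519-55973568, minus strand): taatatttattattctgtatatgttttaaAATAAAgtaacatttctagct
RP24-339I11.6 (chr13:93412908-93412957, plus strand): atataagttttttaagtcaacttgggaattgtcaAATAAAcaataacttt
RP23-262I3.4 (chr13:93319016-93319065, plus strand): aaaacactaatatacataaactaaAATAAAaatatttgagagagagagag
RP23-462F16.1 (chr10:32638831-32638880, minus strand): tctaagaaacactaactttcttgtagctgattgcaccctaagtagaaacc
RP24-211P23.2 (chr3:29176878-29176927, plus strand): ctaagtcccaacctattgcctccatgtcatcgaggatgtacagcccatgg
RP24-253A20.1 (chr5:49515825-49515874, minus strand): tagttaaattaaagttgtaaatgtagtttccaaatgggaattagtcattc
RP24-258B3.1 (chr8:55057680-55057729, plus strand): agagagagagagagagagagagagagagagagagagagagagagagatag
RP24-439I22.9 (chr7:59327318-59327367, minus strand): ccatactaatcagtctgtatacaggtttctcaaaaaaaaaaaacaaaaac

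AATAAA was searched on the transcript strand, with overlapping matches counted once per transcript. It was present in the last 50 bases of 102 of 479 TEC transcripts (21.3%), compared with 60.5% of 12522 mRNAs, 47.1% of 257 lincRNAs and 26.2% of 61 sense intronic RNAs. The share differed with the place of the TEC locus. It was 14.6% for the 363 TEC transcripts in introns, 57.9% for the 19 just downstream of an mRNA gene, 40.9% for the 22 on the opposite strand of such a gene and 38.8% for the 67 elsewhere. Ends rich in A, with at least 12 A in the last 20 bases, made up 11.9% of TEC transcripts and 9.12% of mRNAs. The RP24-439I22.9 end printed above is of that kind. A match of these letters describes the annotated end and not the end used in these cortexes.

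Nearly all TEC transcripts were annotated as a single piece. Of 479 that were found by their identifier in GENCODE M21, 478 had 1 exon. The locus had a median length of 2219 bases, and the shortest, RP23-113I7.1 in an intron of Nav3, had 292 bases. The longest, RP24-439I22.3, had 30942 bases and lay on the strand opposite to Ube3a. The median GC content was 39.4%, compared with 49.8% for mRNAs, 47% for lincRNAs and 42.8% for sense intronic RNAs. They were unevenly spread over chromosomes, with 101 on chromosome 5, 70 on chromosome 1, 54 on chromosome 7, 49 on chromosome 6 and 48 on chromosome 3. The annotation itself was uneven, holding 501 TEC genes on chromosome 5 and 15 on chromosome 11, of which 0 were measured. In total, 14.9% of the 3219 annotated TEC genes were in the table.

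TEC transcripts were expressed at low levels. The mean FPKM over 8 mice had a median of 1.84 and quartiles of 1.29 and 2.76. In other classes, the median was 11.2 FPKM for mRNAs, 2.23 FPKM for lincRNAs and 1.54 FPKM for sense intronic RNAs. Of the 3840 TEC values, 9.82% were under 1 FPKM, and since the values are rounded to 0.1, a TEC transcript at such a level is known only coarsely.

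The TEC transcript with the highest level was RP24-464B16.1, which had no entry in the annotation used for places. Its FPKM was 32.1, 34.2, 37.1 and 35.4 in normal diet mice 1 to 4 and 31.7, 37, 32.9 and 36.2 in high fat diet mice 1 to 4. The diets overlapped fully, and the log2 difference was -0.01 ± 0.06 (SE, adjusted p = 0.909 by limma). RP23-181P23.1, which begins 2725 bases downstream of Nipa1, a magnesium transporter gene, followed with 22.5, 19.8, 18.9 and 20.9 FPKM on the normal diet and 20.3, 19.4, 20.1 and 19.5 FPKM on the high fat diet. It did not pass the test either (log2 difference -0.05 ± 0.06, adjusted p = 0.56), and neither did Nipa1 itself (24.7 ± 2.48 and 23.4 ± 0.93 FPKM, SD, n = 4, adjusted p = 0.415). The third, RP23-153H17.5 in an intron of Ociad1, had 17.4 ± 1.47 and 15.6 ± 0.54 FPKM on the normal and high fat diets (adjusted p = 0.0913). Of the other 7 among the 10 with the highest levels, RP24-339I11.6, located 5654 bases beyond the end of Homer1, had 9.18 ± 1.29 and 9.03 ± 0.61 FPKM and did not pass the test (adjusted p = 0.916). The remaining 6 rose. They were RP24-439I22.6 and RP24-439I22.9 near Ube3a, RP24-315L4.1 in Gpm6a and RP24-253A20.1, RP23-187D22.10 and RP23-187D22.1 in Kcnip4. With a correction for GC content and length, RP24-439I22.6 and RP24-315L4.1 lost the call (adjusted p = 0.833 and 0.649). Of 18 alternative fits, RP24-439I22.6 was called in 8 and RP24-315L4.1 in 7.

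The main comparison asked whether TEC transcripts differed between the diets. In high fat diet mice 245 of 480 TEC transcripts were higher (51%) and 5 were lower, while 230 were not called by limma at an adjusted p below 0.05. Over all 13982 rows tested, 17.7% were higher and 15.3% were lower on the high fat diet. The median log2 difference of TEC transcripts (high fat diet minus normal diet) was 0.49, with quartiles of 0.20 and 0.68, and it was 0.00 over all rows tested. Of the 480 differences 427 were positive. The values of the 4 high fat diet mice lay above those of all 4 normal diet mice for 214 TEC transcripts and below them for 3. Over all rows, these shares were 17.2% and 14.7%. Leaving out high fat diet mouse 2 gave 162 higher TEC transcripts. When a change of over 1.4 times was also required, 211 TEC transcripts were higher and 5 lower, compared with 6.39% and 3.86% of all rows.

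The shift was present in each mouse. The median TEC value was 1.6, 1.4, 1.5 and 1.7 FPKM in normal diet mice 1 to 4 and 2, 2.2, 1.9 and 2.2 FPKM in high fat diet mice 1 to 4, with no overlap. The sums over the 480 TEC transcripts lay between 961 and 1061 FPKM on the normal diet and between 1298 and 1478 FPKM on the high fat diet. On the log2 scale, the median deviation of TEC transcripts from their own mean was lowest in normal diet mouse 2 (-0.33) and highest in high fat diet mouse 2 (0.34).

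**Figure D1:**
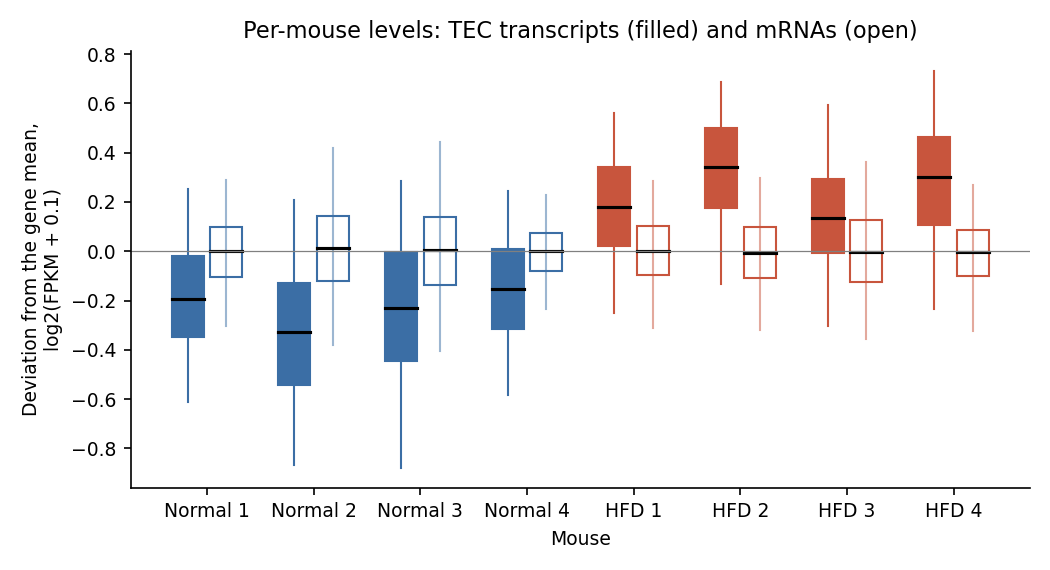
Deviation of each gene from its mean over 8 mice, on the log2(FPKM + 0.1) scale (vertical axis), in each mouse (horizontal axis), for 480 TEC transcripts (filled boxes) and 12519 mRNAs (open boxes). Boxes span the quartiles, black lines are medians and thin lines reach from the lowest to the highest 5%. The TEC medians lie between -0.33 and -0.15 in the 4 normal diet mice and between 0.13 and 0.34 in the 4 high fat diet mice, while the mRNA medians stay near 0.

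Marker lists differed between the same mice. The summed level of 7 cortical neuron markers was 272 to 415 FPKM on the normal diet and 460 to 543 FPKM on the high fat diet, and 5 of the 7 were higher. The 7 of 8 cerebellar markers in the table summed to 50.4 to 334 FPKM on the normal diet and 32.9 to 39.9 FPKM on the high fat diet, and 4 were lower. Among them Gabra6 was listed at 0 in 1 high fat diet mouse. The 6 of 7 striatal markers in the table were all lower, with sums of 184 to 345 FPKM on the normal diet and 50.3 to 60.6 FPKM on the high fat diet. The 6 myelin markers were lower too, with sums of 2019 to 3339 FPKM and 1396 to 1937 FPKM. Of 5 thalamic markers 2 were lower (30 to 88 FPKM and 24.9 to 26.6 FPKM), and Shox2 among them was at 0 in 1 high fat diet mouse. For each of these 5 lists the exact two-sided permutation p was 0.0286, the smallest that 4 against 4 mice allow (0.0357 after adjustment over 10 lists). These tests compared the mean log2(FPKM + 0.1) of each list between the diets and not the sums. Of 4 markers each, 4 blood, 2 astrocyte and 2 endothelium markers were lower (same p), 2 choroid plexus markers were lower (list p = 0.143 by the exact permutation test, adjusted 0.159) and 0 microglia markers were called (list p = 1 by the same exact test). The cerebellar sum was highest in normal diet mice 3 and 2. Without these 2 mice, 150 TEC transcripts were higher and 4 lower, and the median log2 difference was 0.43. With the cerebellar marker level as a covariate, 33 were higher and 1 lower, and the median was 0.39. RNA of cerebellar, striatal and thalamic markers, which mark regions other than cortex, was thus present in unequal amounts in the samples of the 2 diets. The samples may therefore hold unequal amounts of such tissue, and for all TEC differences below the diet and these amounts cannot be told apart beyond the values given.

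Other annotation classes differed in the size of the shift. The median log2 difference was 0.37 for 60 sense intronic RNAs, of which 19 were higher and 0 lower. It was 0.23 for 143 processed pseudogenes, 0.20 for 260 lincRNAs, 0.13 for 132 processed transcripts and 0.11 for 149 antisense RNAs. For 12519 mRNAs it was -0.01, with 2062 higher and 2097 lower, and for 55 snoRNAs, small RNAs that are themselves mostly cut out of introns, it was -0.24 with 1 higher and 9 lower. The difference between classes was not tested, because genes of a class share hosts and are not independent.

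**Figure D2:**
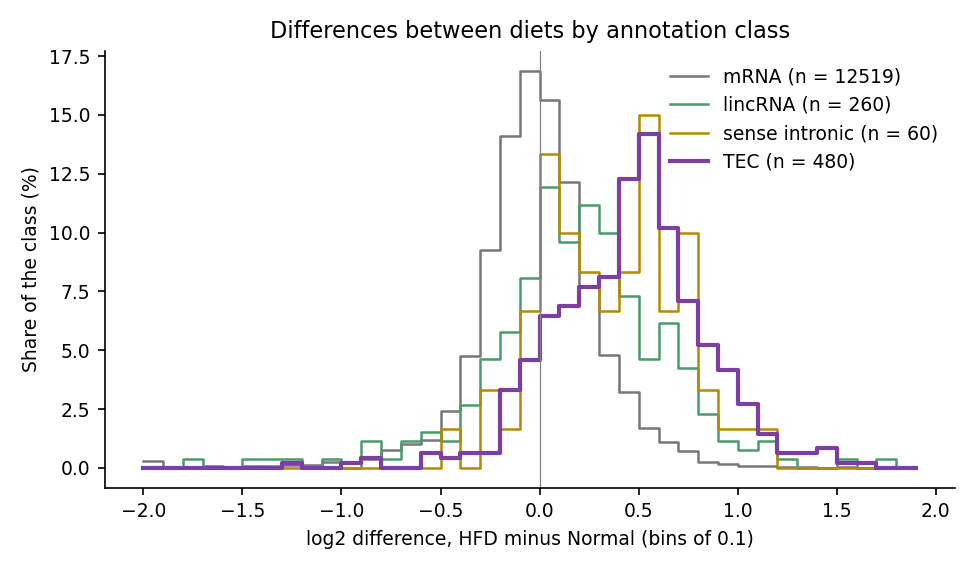
Share of each class in percent (vertical axis) by log2 difference between high fat and normal diet (horizontal axis, bins of 0.1, with values beyond 2 placed in the last bin). The TEC curve (480 transcripts, median 0.49) lies to the right of the mRNA curve (12519 genes, median -0.01), with the sense intronic curve (60 transcripts, median 0.37) and the lincRNA curve (260 transcripts, median 0.20) between them.

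Level and base composition were examined next. Of 186 TEC transcripts at 1 to 1.5 FPKM, 74 were higher and 2 lower, with a median log2 difference of 0.46. At 2.5 to 5 FPKM, 70 of 107 were higher and 2 lower (median 0.52), and at 5 FPKM and over, 24 of 42 were higher and 0 lower (median 0.46). For mRNAs in the same level ranges the medians were -0.04, -0.02 and -0.01. The shares of these mRNAs called higher were 6.36%, 12.5% and 18.6%, and the shares called lower were 10.2%, 12.9% and 18.4%. When TEC transcripts were ranked by GC content and cut into 3 equal groups, 93 of 160 were higher in the lowest group, 97 of 159 in the middle group and 55 of 160 in the highest group, with medians of 0.52, 0.49 and 0.38.

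TEC transcripts were next placed against mRNA genes. Introns of an mRNA gene on the same strand held 363 (75.8%), 8 overlapped an exon on the same strand, 22 lay on the opposite strand, 19 began within 5 kb downstream of an mRNA gene and 67 lay elsewhere. In introns 198 were higher and 4 lower, with a median log2 difference of 0.51. Of those elsewhere, 35 were higher and 0 lower (median 0.49). On the opposite strand, 7 of 22 were higher and 0 lower (median 0.26), and of the 8 that overlapped an exon, 3 were higher and 0 lower (median 0.19). Just downstream of a gene, 2 of 19 were higher and 1 lower (median 0.20). The larger medians were those in introns and elsewhere, and the difference between places was not tested.

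Introns held most of the largest increases, as they held most TEC transcripts as a whole (75.8%). RP23-462F16.1 (GRCm38 chr10:32638831-32639486, minus strand) lies in an intron of Nkain2, whose product interacts with the sodium and potassium pump. Its FPKM was 1.5, 0.6, 1.5 and 2.2 on the normal diet and 5.1, 3.9, 3.7 and 4.5 on the high fat diet. All high fat diet mice were above all normal diet mice, and the log2 difference was 1.62 ± 0.31 (SE, adjusted p = 0.00467). Nkain2 itself had 21.4 ± 4.31 and 23 ± 2.29 FPKM (SD, n = 4) and was not called (log2 difference 0.13, adjusted p = 0.501). With the cerebellar covariate RP23-462F16.1 was not called (adjusted p = 0.213).

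RP24-211P23.2 (chr3:29174838-29176927, plus strand) in an intron of Egfem1 had 1.5, 1.2, 1.1 and 1.5 FPKM on the normal diet and 4.1, 4.3, 3.2 and 4.2 FPKM on the high fat diet. Again no values overlapped, and the log2 difference was 1.51 ± 0.14 (adjusted p = 0.000336). Here the host rose as well, from 4.88 ± 0.28 to 10.5 ± 1.03 FPKM (log2 difference 1.08, adjusted p = 0.000126). Egfem1 held 2 TEC transcripts, and 1 of their 2 ratios to the host was called (median log2 difference of the ratio 0.23). RP24-211P23.2 was called in all 18 alternative fits.

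A pair of TEC transcripts in introns of Khdrbs2, a neuronal RNA-binding protein that regulates splicing, rose together. RP23-109J14.5 had 1.1, 0.8, 1.3 and 1.1 FPKM on the normal diet and 2.3, 3.4, 3.5 and 3.6 FPKM on the high fat diet (log2 difference 1.49 ± 0.18, adjusted p = 0.0009). RP23-109J14.2 had 1, 0.9, 1 and 0.9 FPKM on the normal diet and 3.5, 2.6, 3.2 and 2.1 FPKM on the high fat diet (log2 difference 1.47 ± 0.16, adjusted p = 0.000729). The diets did not overlap for either of them. RP23-109J14.2 averaged under 1 FPKM on the normal diet. It reached the mean of 1 FPKM needed for testing only through the high fat diet values. Khdrbs2 rose to a smaller extent, from 8.23 ± 1.78 to 11.8 ± 0.14 FPKM (log2 difference 0.54, adjusted p = 0.0104), and both ratios to the host were higher on the high fat diet (log2 differences 0.95 ± 0.18 and 0.93 ± 0.18, adjusted p = 0.00816 for each). Neither ratio was called with the cerebellar covariate (adjusted p = 0.0753 and 0.0893). The difference of RP23-109J14.5 itself was called in all 18 alternative fits (highest adjusted p = 0.0382). That of RP23-109J14.2 was called in all 17 (highest adjusted p = 0.0332).

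RP24-496C22.6 in Ldb2, a cofactor of LIM domain transcription factors, and RP24-174I4.1 in Cadm1, an adhesion protein of synapses, also were among the 8 with the largest increases. The former had 0.7, 0.4, 0.4 and 0.9 FPKM on the normal diet and 1.6, 1.9, 1.4 and 1.6 FPKM on the high fat diet. The latter had 0.9, 0.6, 0.4 and 0.5 FPKM on the normal diet and 1.3, 1.7, 1.5 and 2 FPKM on the high fat diet. The log2 differences were 1.36 ± 0.25 and 1.33 ± 0.24 (adjusted p = 0.00397 and 0.00348). Both transcripts were under 1 FPKM in every normal diet mouse. They reached the mean of 1 FPKM needed for testing only through the high fat diet values. Neither was called with the cerebellar covariate (adjusted p = 0.241 and 0.205).

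Only 2 of these 8 had no mRNA host, and both lie on the minus strand of chromosome 1. RP23-242B14.1 (chr1:124824702-124827728) is inside the lincRNA gene Gm28928. Its FPKM was 2.9, 1.8, 1.6 and 3.2 on the normal diet and 6.4, 6.8, 6.5 and 6.6 on the high fat diet. RP23-256H11.1 (chr1:124375578-124379242) had 3, 1.7, 1.6 and 3 FPKM on the normal diet and 5.8, 6.7, 6.1 and 6.5 FPKM on the high fat diet. In both, normal diet mice 2 and 3 were lower than normal diet mice 1 and 4, and every high fat diet mouse was above all of them (log2 differences 1.49 ± 0.20 and 1.45 ± 0.20, adjusted p = 0.00115 and 0.00134). With the cerebellar covariate neither passed the test (adjusted p = 0.0577 and 0.0663). Normal diet mice 2 and 3 were those with the most cerebellar marker RNA. Gm28928 itself rose from 4.03 ± 1.14 to 8.93 ± 1.14 FPKM (log2 difference 1.17, adjusted p = 0.00257).

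**Figure D3:**
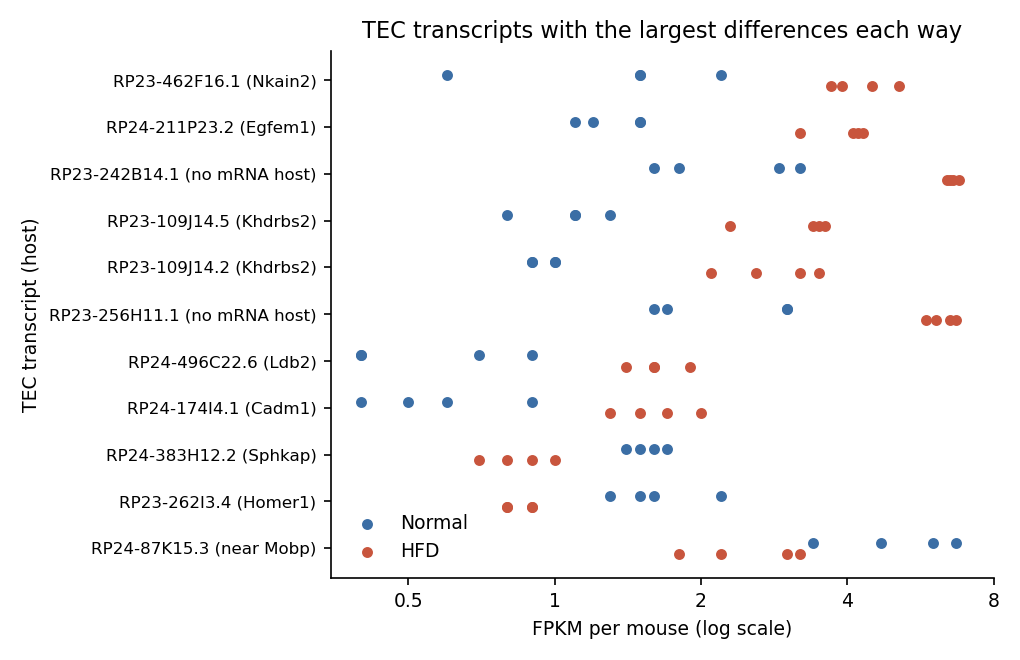
FPKM of each mouse (horizontal axis, log scale) for the 8 TEC transcripts with the largest increases and the 3 with the largest decreases (rows, with the host gene in parentheses) whose diets did not overlap. Blue points are 4 normal diet mice and red points 4 high fat diet mice, and equal values lie on top of each other. RP23-462F16.1 reaches 3.7 to 5.1 FPKM on the high fat diet and stays at 0.6 to 2.2 FPKM on the normal diet, and RP24-87K15.3 near Mobp goes the other way, from 3.4 to 6.7 FPKM down to 1.8 to 3.2 FPKM.

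Only 5 TEC transcripts were lower, and the count was 3 without normal diet mouse 1 or 2 or high fat diet mouse 1 or 3. RP24-87K15.3 begins 1080 bases downstream of Mobp, which encodes a major protein of compact myelin. Its FPKM was 4.7, 6.7, 6 and 3.4 on the normal diet and 1.8, 2.2, 3 and 3.2 on the high fat diet, without overlap (log2 difference -0.99 ± 0.23, adjusted p = 0.0113). Mobp fell likewise, from 630 ± 124 to 329 ± 48.8 FPKM (log2 difference -0.93, adjusted p = 0.00231), and the myelin marker list that contains it was lower as given above. The same locus also lies inside the non-coding gene Gm38642 on the same strand. Gm38642 had 1.425 FPKM on either diet and was not called (adjusted p = 0.925). RP24-87K15.3 was not called without normal diet mice 2 and 3 (adjusted p = 0.0898) or with the cerebellar covariate (adjusted p = 0.4).

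A pair of the lower TEC transcripts lies in introns of Homer1, a scaffold protein of the postsynaptic density. RP23-262I3.4 had 2.2, 1.5, 1.3 and 1.6 FPKM on the normal diet and 0.9, 0.9, 0.8 and 0.8 FPKM on the high fat diet, without overlap (log2 difference -0.86 ± 0.17, adjusted p = 0.00593). RP23-262I3.3 had 2.7, 1.9, 1.7 and 2.4 FPKM on the normal diet and 1.3, 1.9, 1.1 and 1.4 FPKM on the high fat diet, where high fat diet mouse 2 reached the normal range (log2 difference -0.58 ± 0.19, adjusted p = 0.0445). The call of RP23-262I3.3 was lost with the replicate block (adjusted p = 0.0655), with the cerebellar covariate (adjusted p = 0.0716) and in 6 of the 8 fits without a mouse, namely normal diet mouse 1, 2 or 4 or high fat diet mouse 1, 3 or 4 (adjusted p up to 0.105). RP23-262I3.4 lies 17.6% and RP23-262I3.3 12.7% along the gene. Both ratios to the host were lower, though not called with the covariate (adjusted p = 0.0644 and 0.165, in that order). The difference of RP23-262I3.4 itself was called in all 17 alternative fits (highest adjusted p = 0.0209). Homer1 mRNA was not called, with 95.4 ± 16.5 and 102 ± 7.1 FPKM (adjusted p = 0.458), and neither was the TEC transcript RP24-339I11.6 beyond its 3′ end. RP24-383H12.2 in Sphkap, an anchor for protein kinase A, had 1.6, 1.5, 1.7 and 1.4 FPKM on the normal diet and 0.9, 1, 0.7 and 0.8 FPKM on the high fat diet (log2 difference -0.80 ± 0.15, adjusted p = 0.00453, with the covariate 0.126). Its values did not overlap, and Sphkap fell by 0.42 on the log2 scale (adjusted p = 0.0045). RP24-383H12.2 and RP23-262I3.4 averaged under 1 FPKM on the high fat diet and passed the filter only through the normal diet values. The fifth, RP24-325N9.3 in Snrk, was not chosen by the naming rule and is added because it completes the 5. It had 2.5, 3.2, 6.5 and 2.2 FPKM on the normal diet and 1.2, 1.3, 0.6 and 2.8 FPKM on the high fat diet, with overlap (log2 difference -1.29 ± 0.44, adjusted p = 0.0471).

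Intronic TEC transcripts were then set against the genes that contain them. The 363 intronic TEC transcripts lay in 190 different hosts, of which 144 held 1 and 13 held 5 or more, with 136 TEC transcripts in these 13. TEC transcripts of the same host are not independent, as they may share the unspliced RNA of that host. The hosts were long genes, with a median span of 108409 bases, and mostly well expressed, with a median of 24.8 FPKM. For 367 TEC transcripts wholly inside an mRNA gene on the same strand that passed the filter on low values, the level was 6.91% of that of the host at the median (quartiles 3.15% and 12.4%), and 0 of these 367 exceeded the host. RP24-245M20.4, in an intron of Gm21992, was not among them, because Gm21992 did not pass the filter, and is named after its values were seen. Its mean of 2.69 FPKM exceeded the host (0.95 FPKM on the normal diet and 1.45 FPKM on the high fat diet) and was 224% of the host level. The levels of TEC transcript and host were weakly ordered together (Spearman's rho 0.19 across 367 pairs, which share libraries and hosts).

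The TEC transcripts moved more than their hosts. Across the 367 pairs the median log2 difference was 0.51 for TEC transcripts and 0.13 for hosts. Counting each of the 191 hosts once, 61 were higher (31.9%), 24 were lower and 106 were not called. The hosts were therefore also higher more often than the 17.7% of all rows. Of the TEC transcripts that were higher, 81 had a host that was higher, 118 had a host that was not called and 1 had a host that was lower. The log2 differences of TEC transcripts and hosts correlated across the 367 pairs (Pearson's r 0.51, Spearman's rho 0.52). This correlation is a description, since paired values come from the same mice.

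The ratio of TEC transcript to host was tested for each pair with limma, adjusted over 599 pairs of all non-coding classes inside mRNA genes. The ratio was higher on the high fat diet for 132 of 367 TEC transcripts (36%), lower for 5 and not called for 230. Over all 599 pairs 28.9% were higher and 2.5% were lower. The 367 TEC pairs are part of these 599, so the 2 shares are not those of other classes alone. The median log2 difference of the ratio was 0.38, and 320 of 367 were positive. Taking the median of each host first, it was 0.33 over 191 hosts, of which 161 were above 0. Of 56 sense intronic RNAs in hosts 16 ratios were higher and 1 lower (median 0.34), and of 45 snoRNAs 0 were higher and 7 lower (median -0.26). The count of higher TEC ratios was 69 without high fat diet mouse 2 and 84 without high fat diet mouse 4. Without normal diet mice 2 and 3, 67 TEC ratios were higher, and with the cerebellar marker level as a covariate 10 were higher.

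**Figure D4:**
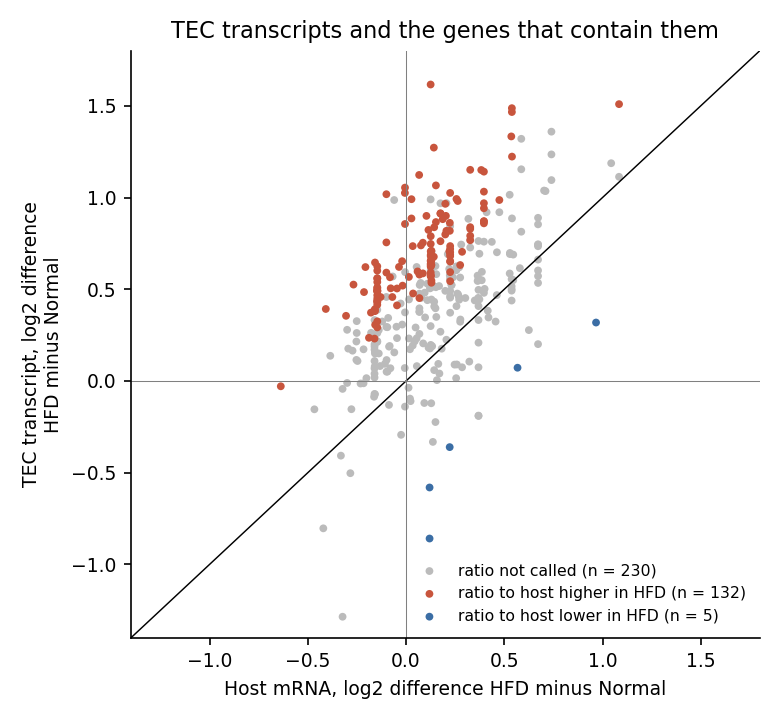
Log2 difference between high fat and normal diet of 367 TEC transcripts (vertical axis) against that of the mRNA gene that contains each of them (horizontal axis). The diagonal marks equal differences, and TEC transcripts of the same host form vertical rows. Most points lie above the diagonal. Red points are the 132 ratios called higher, blue points the 5 called lower and grey points the 230 not called.

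The 4 large increases of the ratio described next were in hosts that were not called. After RP23-462F16.1 in Nkain2 (log2 difference of the ratio 1.49 ± 0.24, adjusted p = 0.00609) followed RP23-187B11.14 in Zfp810, a zinc finger gene. This TEC transcript had 0.7, 0.5, 0.8 and 0.4 FPKM on the normal diet and 1.7, 1.5, 1.4 and 1.6 FPKM on the high fat diet, without overlap (ratio 1.13 ± 0.22 on the log2 scale, adjusted p = 0.00816). RP24-258B3.1 in Gpm6a, a membrane glycoprotein of neurons, had 0.7, 0.6, 0.7 and 0.8 FPKM on the normal diet and 1.3, 1.6, 1.4 and 1.8 FPKM on the high fat diet. Its values did not overlap, while Gpm6a had 436 ± 29.9 and 406 ± 19.6 FPKM (ratio 1.12 ± 0.16, adjusted p = 0.00469). It was at 0.264% of the host level. RP23-387F14.2 in Arap2, a GTPase-activating protein of Arf proteins, had 0.7, 0.8, 0.4 and 0.6 FPKM on the normal diet and 1.3, 1.7, 1.4 and 1.4 FPKM on the high fat diet, without overlap (ratio 1.06 ± 0.21, adjusted p = 0.00914). The transcripts in Zfp810, Gpm6a and Arap2 were under 1 FPKM in every normal diet mouse. They passed the filter on low values only through the high fat diet. None of these 4 ratios was called with the cerebellar covariate, with adjusted p values from 0.0818 for RP24-258B3.1 to 0.159 for RP23-387F14.2.

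Besides the Homer1 pair, 3 TEC transcripts had a lower ratio to the host. In each of them the host rose and the TEC transcript did not pass the test. RP24-498P8.5 near the 5′ end of Bsn, which encodes the presynaptic scaffold Bassoon, had 3.9, 4.8, 6.1 and 4.9 FPKM on the normal diet and 5.3, 6.2, 7.1 and 5.9 FPKM on the high fat diet, with overlap (adjusted p = 0.0954). Bsn rose from 29.9 ± 5.63 to 58 ± 6.71 FPKM, and the ratio was lower by -0.65 ± 0.20 on the log2 scale (adjusted p = 0.0313). RP24-88F2.3 in Noct, a gene with a daily rhythm in many tissues, had 1.6, 1.2, 1.5 and 1.9 FPKM on the normal diet and 1.2, 1, 1.2 and 1.3 FPKM on the high fat diet. The ranges met at 1.2 to 1.3 FPKM, and the log2 difference of the ratio was -0.58 ± 0.14 (adjusted p = 0.0148). RP24-79A6.8 in Srrm4, a neuronal splicing regulator, had 1.85 ± 0.25 and 1.95 ± 0.26 FPKM, where Srrm4 rose from 3.38 ± 0.43 to 5.03 ± 0.25 FPKM (ratio -0.50 ± 0.14, adjusted p = 0.0261). None of these 3 ratios was called with that covariate, and that of RP24-498P8.5 turned to 0.02 (adjusted p = 0.952).

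The length of the host went with the difference of the TEC transcript. In hosts under 50 kb, 10 of 40 TEC transcripts were higher (median log2 difference 0.20). In hosts of 50 to 200 kb 37 of 97 were higher and 4 lower (median 0.38), in hosts of 200 to 500 kb 47 of 69 were higher (median 0.57), and in hosts of 500 kb and over 104 of 157 were higher (median 0.57). Long mRNA genes differed in the same direction over the whole table, with median log2 differences of -0.03, 0.02, 0.10 and 0.11 in these ranges. The share of mRNAs called higher also rose with length, with 13.28%, 21.07%, 31.28% and 33.65% in these ranges. The shares called lower were 17.51%, 16.09%, 11.25% and 12.98%. When hosts were divided into 4 equal stretches from 5′ to 3′, the median was 0.44 in the first, 0.57 in the second, 0.54 in the third and 0.48 in the last.

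Hosts of different function all held more higher than lower TEC transcripts, as did intronic TEC transcripts as a whole. Of the latter 54.55% were higher and 1.1% lower, compared with 17.7% and 15.3% of all rows. The groups lay on both sides of the 54.55%, and a difference between them was not tested. Of 70 TEC transcripts in 18 adhesion and axon guidance genes, 42 were higher and 0 lower. Adgrb3 alone held 19 of the 70 and 16 of the 42. In 9 genes of synaptic vesicles and scaffolds 30 of 39 were higher and 2 lower, both in Homer1. Dlg2 alone held 17 of the 39 and 13 of the 30. In 9 ion channel and transporter genes 21 of 34 were higher and 0 lower. Kcnip4 alone held 23 of the 34 and 16 of the 21. Such counts are of TEC transcripts, and those of the same host are not independent. In RNA-binding and splicing genes 6 of 10, in neurotransmitter receptor genes 5 of 7, in kinase, phosphatase and signaling genes 7 of 20 and in transcription and chromatin genes 8 of 23 were higher, with 0 lower. Of the 160 in other hosts, 79 were higher and 2 lower. The groups differ in the length of their genes, and the part of length in these counts was not tested.

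Kcnip4, which encodes an accessory subunit of A-type potassium channels, held the most TEC transcripts. Its 23 intronic TEC transcripts spread from 0.663% to 79.2% of a span of 1135406 bases on the minus strand of chromosome 5. Of these 16 were higher and 0 lower, and the log2 differences lay between 0.21 and 0.63 with a median of 0.47. With the cerebellar covariate 4 of the 16 were called (median of the 23 log2 differences 0.55), and without normal diet mice 2 and 3 all 16 were. Kcnip4 mRNA did not follow, with 23.4, 29.6, 29.5 and 25.1 FPKM on the normal diet and 22.2, 25, 24.9 and 24.7 FPKM on the high fat diet (log2 difference -0.15 ± 0.08, adjusted p = 0.199). The ratio to Kcnip4 was called for 19 of the 23, all higher. The first TEC transcript, RP24-253A20.1, had 6.4, 6.8, 7.6 and 7.6 FPKM on the normal diet and 9.5, 10.9, 10.2 and 10.8 FPKM on the high fat diet, without overlap (log2 difference 0.54 ± 0.08, adjusted p = 0.00137). It was at 34.2% of the host level. At 50.7% of the gene, RP23-187D22.9 had 3.5, 3.3, 3.5 and 3 FPKM on the normal diet and 4.4, 5.4, 4.9 and 5.1 FPKM on the high fat diet (log2 difference 0.56 ± 0.09, adjusted p = 0.0022, with the cerebellar covariate 0.066). At 71.4% of the gene, RP24-170C14.2 had 1.6, 1.9, 2 and 1.9 FPKM on the normal diet and 2.8, 2.8, 2.9 and 2.9 FPKM on the high fat diet (log2 difference 0.60 ± 0.10, adjusted p = 0.00257). The level of these 3 thus dropped from the 5′ to the 3′ end, and their log2 differences were alike. Of the 7 that were not called, RP24-201G17.1 varied most between mice of the same diet, with 2.7, 4, 1.8 and 1.5 FPKM on the normal diet and 1.8, 3.3, 2.4 and 3.8 FPKM on the high fat diet (adjusted p = 0.625).

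Adgrb3, an adhesion G protein-coupled receptor of neurons, held 19 TEC transcripts, of which 16 were higher and 0 lower. The log2 differences lay between 0.20 and 0.79 with a median of 0.63. With the cerebellar covariate 5 of the 16 were called (median of the 19 log2 differences 0.61), and without normal diet mice 2 and 3, 13 were called. Adgrb3 mRNA had 39, 36, 36.8 and 39.7 FPKM on the normal diet and 41, 42.6, 39.1 and 42.6 FPKM on the high fat diet (log2 difference 0.13 ± 0.05, adjusted p = 0.0756). In the 5′ part, RP23-184I13.5 had 4.6, 4.8, 5 and 4.7 FPKM on the normal diet and 6.7, 8.1, 6.4 and 7.9 FPKM on the high fat diet, without overlap (log2 difference 0.59 ± 0.09, adjusted p = 0.00162). At 69.7% of the gene, RP23-21P2.2 had 2.1, 1.6, 1.9 and 2.1 FPKM on the normal diet and 3.2, 3.7, 2.9 and 3.8 FPKM on the high fat diet (log2 difference 0.79 ± 0.13, adjusted p = 0.0023). It was not called with the cerebellar covariate (log2 difference 0.61, adjusted p = 0.117). The 3 that were not called were RP23-184I13.8, the first in the gene with 5.25 ± 1.69 and 8.1 ± 2.71 FPKM (adjusted p = 0.163), RP23-347F2.1 (1.48 and 2.15 FPKM, adjusted p = 0.082) and RP23-21P2.4, the last in the gene with 1.58 ± 0.19 and 1.85 ± 0.45 FPKM (adjusted p = 0.428).

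Dlg2, which encodes the postsynaptic scaffold PSD-93, held 17 TEC transcripts. Of these 13 were higher and 0 lower, with log2 differences between 0.37 and 1.03 and a median of 0.65. With the cerebellar covariate 0 of the 13 were called (median of the 17 log2 differences 0.34), and without normal diet mice 2 and 3, 6 of the 13 were called (median 0.43). Dlg2 mRNA had 61.2, 51.4, 49.5 and 63.9 FPKM on the normal diet and 63.9, 69.1, 63.8 and 65.9 FPKM on the high fat diet (log2 difference 0.22 ± 0.08, adjusted p = 0.061), with normal diet mice 2 and 3 lowest. The highest TEC transcript, RP24-63H14.1, had 5.7, 4.4, 4.8 and 5.3 FPKM on the normal diet and 7.9, 9.3, 7.2 and 8.7 FPKM on the high fat diet, without overlap (log2 difference 0.70 ± 0.10, adjusted p = 0.00159). The largest difference was that of RP24-69L13.1, with 1.2, 0.9, 0.6 and 1.4 FPKM on the normal diet and 2.3, 2.6, 1.8 and 1.8 FPKM on the high fat diet (log2 difference 1.03 ± 0.24, adjusted p = 0.0113). Its log2 difference with the cerebellar covariate was 0.40 (adjusted p = 0.505). Ratios to the host were called for 10 of the 17 in Dlg2 and for 15 of the 19 in Adgrb3, all of them higher.

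Other hosts with many TEC transcripts differed from these. In Cntnap2, the longest of them with 2244857 bases, 0 of 11 TEC transcripts were called, although 10 of the 11 log2 differences were positive, with a median of 0.17. Cntnap2 mRNA was lower, with 22.4 ± 1.07 and 20 ± 0.54 FPKM (log2 difference -0.16, adjusted p = 0.0309), and 2 of the 11 ratios were called, both higher. In Negr1 0 of 5 were called as well. In Ank2, which encodes ankyrin-B, 9 of 10 were higher with a median of 0.70, and Ank2 mRNA rose by nearly the same amount, from 16.8 ± 1.58 to 26.9 ± 3.28 FPKM (log2 difference 0.67, adjusted p = 0.00141), so that 0 of the 10 ratios were called. The same held for Pclo, a presynaptic scaffold gene, with 4 of 5 higher, a median of 0.50 and a host difference of 0.54. In Fam155a 9 of 9, in Lrrtm4 7 of 7, in Pcdh7 7 of 9, in Ctnna2 5 of 7, in Gpm6a 4 of 5 and in Auts2 3 of 9 were higher.

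The level of TEC transcripts tended to decline over the stretch of a long host that held them. Spearman's rho between mean FPKM and position from 5′ to 3′ was negative in 11 of the 13 hosts with 5 or more TEC transcripts. It was -0.73 in Kcnip4 (23 TEC transcripts), -0.78 in Adgrb3 (19), -0.58 in Dlg2 (17) and -0.52 in Cntnap2 (11), and it was positive in Ank2 (0.31, 10) and Pcdh7 (0.18, 9). The TEC transcripts of Cntnap2 lay only between 0.66% and 15.8% of the gene, and those of Dlg2 began at 29.1%. The rest of these genes is therefore not covered. The points of a host share its libraries and are not independent, so the correlations are descriptions. For the log2 difference the correlation with position had no common sign, with 0.08 in Kcnip4, 0.46 in Adgrb3 and -0.24 in Dlg2.

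**Figure D5:**
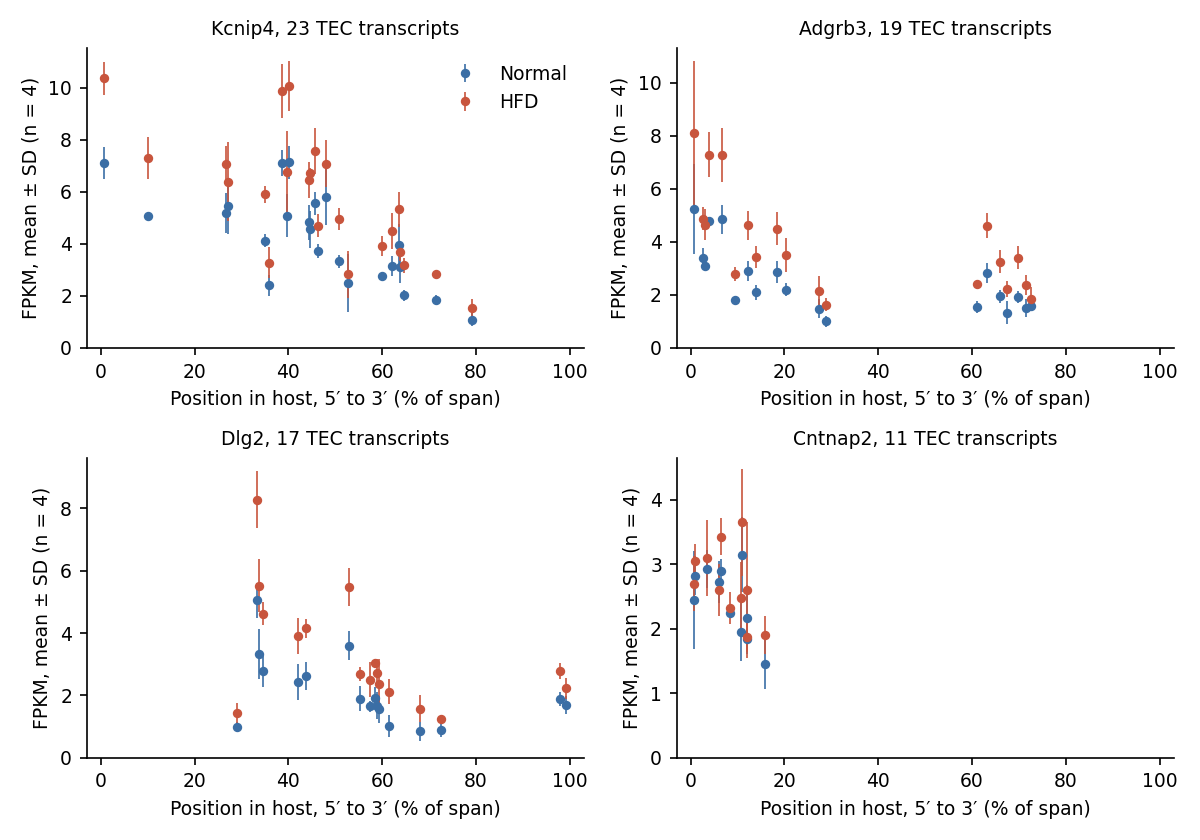
FPKM of the TEC transcripts in introns of Kcnip4, Adgrb3, Dlg2 and Cntnap2 (vertical axes, mean ± SD of 4 mice) by their position from the 5′ end (0%) to the 3′ end (100%) of the host (horizontal axes). Blue points are normal diet mice and red points high fat diet mice. Levels tend to fall over the stretch that holds TEC transcripts, which in Cntnap2 is only 0.66% to 15.8% of the host. The red points lie above the blue ones along Kcnip4, Adgrb3 and Dlg2, whereas in Cntnap2 the diets lie close together.

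TEC transcripts outside mRNA hosts were described by their neighbours. On the minus strand of chromosome 7, 6 TEC transcripts lie opposite to Ube3a or inside Snhg14. Ube3a encodes a ubiquitin ligase that neurons express from the maternal copy only, and Snhg14 is the long non-coding gene whose transcript runs into Ube3a from the other side. Of these 6 transcripts 4 were higher, 1 of them (RP24-439I22.6) under part of the settings only. RP24-439I22.9 had 6.9, 7.2, 7.3 and 7.1 FPKM on the normal diet and 9.9, 10.8, 9.1 and 10.5 FPKM on the high fat diet (log2 difference 0.49 ± 0.06, adjusted p = 0.00112). RP24-439I22.3, the longest TEC transcript (chr7:59223847-59254788), had 4.1, 4.3, 4.1 and 4.3 FPKM on the normal diet and 5.8, 6.5, 5.7 and 6.5 FPKM on the high fat diet (log2 difference 0.53 ± 0.07, adjusted p = 0.00114). Neither of them overlapped between diets, and the spread within each diet was small. RP24-439I22.4 was similar (6.83 and 9.63 FPKM, log2 difference 0.49 ± 0.07, adjusted p = 0.00184), and RP24-439I22.6 was higher with overlap (9.23 ± 1.63 and 12.1 ± 1.6 FPKM, log2 difference 0.40, adjusted p = 0.0384). The call of RP24-439I22.6 was lost with the GC and length correction (log2 difference 0.03, adjusted p = 0.833), with the covariate (adjusted p = 0.119), without the variance trend (adjusted p = 0.0559), with the replicate block (adjusted p = 0.0858) and in 6 of the 8 fits without a mouse, those with normal diet mouse 3 or high fat diet mouse 3 left out being the exceptions. RP24-439I22.5 and RP23-60N8.3 did not pass the test (log2 differences 0.34 and 0.39, adjusted p = 0.0732 and 0.0741). Snhg14 itself had 10, 9.8, 11.6 and 10.6 FPKM on the normal diet and 14.1, 16.3, 13.8 and 15.3 FPKM on the high fat diet and rose by 0.50 ± 0.07 (adjusted p = 0.00164). Ube3a had 29.1 ± 0.91 and 27.3 ± 1.21 FPKM and was not called (adjusted p = 0.147). RP24-439I22.4, RP24-439I22.5 and RP23-60N8.3 are described after their values were seen, to complete the 6.

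Other non-coding genes held 26 of the 67 TEC transcripts placed elsewhere, among them Snhg14. Of these 26, 16 were higher and 0 lower, with a median log2 difference of 0.50. Of the 41 outside any such gene, 19 were higher and 0 lower (median 0.40). The ratio test took only mRNA genes as hosts, so no ratio to a non-coding host was tested.

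For the 19 TEC transcripts downstream of an mRNA gene, at distances of 186 to 4036 bases, the difference was compared with that of the upstream gene. The log2 differences of TEC transcript and gene correlated with Pearson's r of 0.83 across the 19 pairs and of 0.58 across the 18 pairs without Mobp, given as a description since the pairs share libraries. The medians were 0.20 for TEC transcripts and -0.07 for genes, of which 3 were higher and 1 lower. The TEC transcript 523 bases downstream of Sept11, which was picked after its values were seen, had 5.4, 3.5, 3.7 and 5.8 FPKM on the normal diet and 5.7, 6.8, 6.4 and 6.9 FPKM on the high fat diet (log2 difference 0.51 ± 0.16, adjusted p = 0.0366), and the difference of Sept11 was 0.12 (adjusted p = 0.213).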

How the data were processed

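Cortexes of 4 normal diet and 4 high fat diet mice were measured, and groups followed the labels. The authors trimmed reads (FastQC, Trimmomatic), aligned them with STAR to mm10 and calculated the deposited FPKM with Cuffnorm on the GENCODE M17 basic annotation (GRCm38.p6). Tool versions were not stated in the sources at hand. FPKM values were rounded to 0.1 and depth is unknown. From these, log2(FPKM + 0.1) was compared with limma 3.58.1 in R 4.3.3 (two-sided, variance trend, Benjamini-Hochberg over 13982 rows whose mean FPKM reached 1 and that held no 0). Differences on this scale understate changes of low transcripts. A transcript that averaged under 1 FPKM on 1 diet passed the filter on mean FPKM only through the other diet. Ratios used the log2 value of the inner transcript minus that of its host. Adjusted p-values in the text are from limma. Those of marker lists are from exact permutation of the mean log2(FPKM + 0.1) of the list over 70 assignments.

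Places came from GENCODE M21 on GRCm38, with 479 of 480 identifiers matched. Names are the clone names of the table. Where several genes contained a locus, the one with the smallest span was the host. No genome was used here, so A-rich ends were counted in the last 20 transcript bases in place of the bases after the end.

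Named TEC transcripts were the 10 with the highest level, up to 8 each way with the largest non-overlapping called differences, up to 5 each way with the largest called ratio differences, those of the 3 hosts with most TEC rows, and the longest and shortest (87 in all). The results of 1 gene and its TEC transcripts are not reported here. Members and lists were chosen with earlier results of these data known. Alternatives were another constant, other filters, 2 scalings, no trend, a cerebellar covariate, a GC and length correction (loess span 0.5), a replicate block, another host rule and each mouse left out. The procedure was tested on simulated data. Python 3.11.15, numpy 2.4.6, pandas 2.3.3, scipy 1.17.1 and matplotlib 3.10.9 were used.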

Additional observations from a re-analysis of the deposited data

Results flagged for a closer look

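In 8 of 174 groups of 4 mice (87 named TEC transcripts in both diets), 1 mouse stood apart by the gap to its nearest neighbour, and chance alone flags about 1 in 20 groups. On the high fat diet, the value standing apart was 2.3 FPKM for RP23-109J14.5 (range 2.3 to 3.6), 3.6 FPKM for RP23-309G12.4 in Kcnip4 (3 to 3.6) and 3.9 FPKM for RP23-21P2.7 in Adgrb3 (3.9 to 4.9). On the normal diet, it was 3.5 FPKM for RP23-478K4.1 and 1.3 FPKM for RP23-347F2.2, both in Adgrb3 (2.6 to 3.5 and 0.9 to 1.3). In Kcnip4 it was 4 FPKM for RP23-309G12.3 (2.7 to 4) and 6.3 FPKM for RP23-187D22.3 (4.6 to 6.3). In Dlg2 it was 2.2 FPKM for RP23-242J3.5 (1.3 to 2.2).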

How the results depend on the processing

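The count of 245 higher TEC transcripts was 135 of 216 at a mean FPKM of at least 2, 150 without normal diet mice 2 and 3 together (an alternative chosen after seeing the data, which kept 143 of the 245) and 33 with the cerebellar covariate (30 kept). It was 162 to 226 with each mouse left out, lowest without high fat diet mouse 2, and 155 of the 245 were called in each of those 8 fits. The count of 5 lower was 2 at a mean of 2, 1 with the covariate and 3 to 4 without a mouse. Over all rows, higher and lower calls were 351 and 307 with the covariate, 1528 and 1215 without mice 2 and 3, and 893 and 540 with a change of over 1.4 times. The median TEC difference was 0.32 with 1 FPKM added and 0.39 with the covariate. TEC ratio calls higher were 85 of 153 at a mean of 2, 10 with the covariate, 67 without mice 2 and 3, and 69 to 138 without a mouse (69 without high fat diet mouse 2, 84 without mouse 4). Lower ratio calls were 1 at a mean of 2, 0 with the covariate, 3 without mice 2 and 3 and 3 to 6 without a mouse. Fewer rows or mice enter several of these fits, and otherwise the cause was not tested.

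Replicate numbers only name mice, since deviations of same-numbered mice correlated at -0.04, -0.03, -0.11 and -0.07. With the replicate block 191 TEC transcripts were higher and 3 lower, and 98 ratios were higher and 4 lower.

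Among the 87 named TEC transcripts, 1375 refits kept direction and call, 136 lost the call, 19 gained it and 10 turned the sign, all of the last in transcripts not called. RP24-79A6.8 was -0.0197 to 0.159 without single mice. RP24-339I11.6 was 0.0108 with the GC and length correction and -0.0774 to 0.0654 without single mice. RP24-464B16.1 was 0.121 with the covariate, 0.0283 without mice 2 and 3 and -0.0481 to 0.0275 without single mice. Rounding to 0.1 FPKM and unknown depth limit transcripts near 1 FPKM.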
